A study of Mus musculus with 24 samples.

Results

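The amino acid transporters examined here are 10 genes: the cationic transporters Slc7a1 and Slc7a3, the heavy chain Slc3a2 and its light chains Slc7a5, Slc7a6 and Slc7a11, the neutral transporters Slc1a4 and Slc1a5, and the sodium-coupled transporters Slc38a1 and Slc38a2. They were taken as all probes whose symbol in the deposited table is one of these names. That gave 15 of the 25697 probes on the array and 10 of its 17872 genes. The list was drawn up with the levels in the 4 cell states and both genotypes in view, so its members were in part selected on the values described below. Differences between cell states, and the genotype difference of Slc7a3 in stimulated cells, are therefore descriptions. Where such a difference is said to be called, it passed the thresholds applied to all genes, and this is no independent test of it.

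RNA of CD4+ T cells was measured on 24 Illumina MouseRef-8 v2 BeadChips, with 3 arrays (replicates A, B and C) for each of 4 cell states and 2 genotypes. BAF180-deficient (KO) mice carried a conditional allele of Pbrm1, the gene that encodes BAF180, deleted by Cre under the Cd4 promoter, and the labels call the KO and WT mice Balb/c, at 4 to 6 weeks of age. Whether the WT mice carried Cre is not given in the sources used here, and the methods describe a mixed B6-129 background before the Cre cross. Resting Naïve cells were CD4+CD62L+ cells isolated from lymph nodes and spleen. For stimulated Naïve cells these were activated during 24 h by antibodies to CD28 (2 µg/ml) and CD3 (1 µg/ml). Resting Th2 cells were grown from Naïve cells on the same antibodies with IL-4 at 10 ng/ml, anti-IFN-gamma at 10 µg/ml and then IL-2 at 100 U/ml. Stimulated Th2 cells were resting Th2 cells after 1.5 h in ionomycin (500 ng/ml) with PMA (50 ng/ml).

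A resting T cell imports few amino acids, and after antigen receptor signalling it raises the uptake of leucine, glutamine, arginine, serine and cystine for protein and nucleotide synthesis. Leucine enters through Slc7a5, which reaches the membrane only when joined to the glycoprotein Slc3a2 (CD98 heavy chain), and leucine inside the cell activates the kinase mTORC1. When amino acids run short, the kinase GCN2 raises translation of the transcription factor ATF4, which is known to act on several transporter genes.

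A probe on this array is a 50-base oligonucleotide, so that what is measured for a gene is the stretch its probe reads. Pieces of the probes are shown for 3 genes whose probes bear on the results. The first 30 bases of each are given from 5′ to 3′, and capitals mark bases that both Slc1a5 probes hold.
Slc7a3, start at transcript base 2188: ccccacgaagagctgggcctctcatgtggt
Slc7a3, start at transcript base 139: tcgtagcctagccggaggaggtggggaaca
Slc1a5, start at transcript base 568: aTCCAGAGAGGACCAGAGTGCGAAAGCAGG
Slc1a5, start at transcript base 569: TCCAGAGAGGACCAGAGTGCGAAAGCAGGt
Slc38a2, start at transcript base 617: gagcaatgcgattgtgggcagtggaatcct
Slc38a2, start at transcript base 4429: catggctatctggtaacatgtcaagtgtga
Slc38a2, start at transcript base 4563: accggtttcaatgaaacaatgtatgtttgt
The Slc1a5 probes are shifted by 1 base and share 49 of their 50 bases, so they are repeat readings of one stretch. Those of Slc38a2 lie at chr15:96528378-96528427, chr15:96517972-96518021 and chr15:96517838-96517887 on the minus strand in the array annotation, whose genome build is not given in the sources used here.

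Of the 15 probes, 13 had a detection p-value of at most 0.02 on at least 1 array and were kept, and each of the 10 genes had a kept probe. The probes left out were the one of Slc7a3 at base 139 and the one of Slc7a1 at base 2287, and neither was detected on any array. Each gene is described by its brightest kept probe. Levels are log2 intensities after background correction and quantile normalization (log2 level below), on which an undetected probe reads about 4 to 5. Levels of different probes are not compared with each other.

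Over the whole series, 8047 to 10689 probes were detected per array, and replicate arrays of a group correlated at 0.949 to 0.989. The genotype labels were checked on Pbrm1, whose brightest probe was lower on every KO array than on any WT array of the same state (KO minus WT -1.86 to -1.01 on the log2 scale). All 6 T cell markers were detected on every array. Among activation markers in WT Naïve cells, Il2ra averaged 5.34 at rest and 8.38 stimulated, Tnfrsf4 7.39 and 9.59, and Myc 4.96 and 6.38. Cd69 went the other way, at 11.87 and 10.44, and read 7.54 in resting WT Th2 cells. Mean levels of the 4 myeloid markers measured (Lyz2, Cd14, Csf1r and Adgre1) were 7.98 to 8.85 in resting Naïve cells of both genotypes and 4.33 to 5.10 in the other states. Of these, Adgre1 averaged 6.06 in resting and 6.04 in stimulated WT Th2 cells (5.64 and 5.32 in KO). It was undetected in stimulated Naïve cells. The 4 B cell markers averaged 5.73 to 6.94 in resting Naïve cells, against 4.34 to 6.00 elsewhere. The regulatory T cell markers Foxp3 and Ikzf2 averaged 7.91 to 8.95 in resting Naïve, 6.57 to 7.78 in stimulated Naïve and 5.24 to 6.14 in Th2 cells. Each comparison with resting Naïve cells moves with these values, and their part in it was not tested. In such bulk samples, fewer cells of a type and less RNA per cell cannot be told apart.

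**Figure D1:**
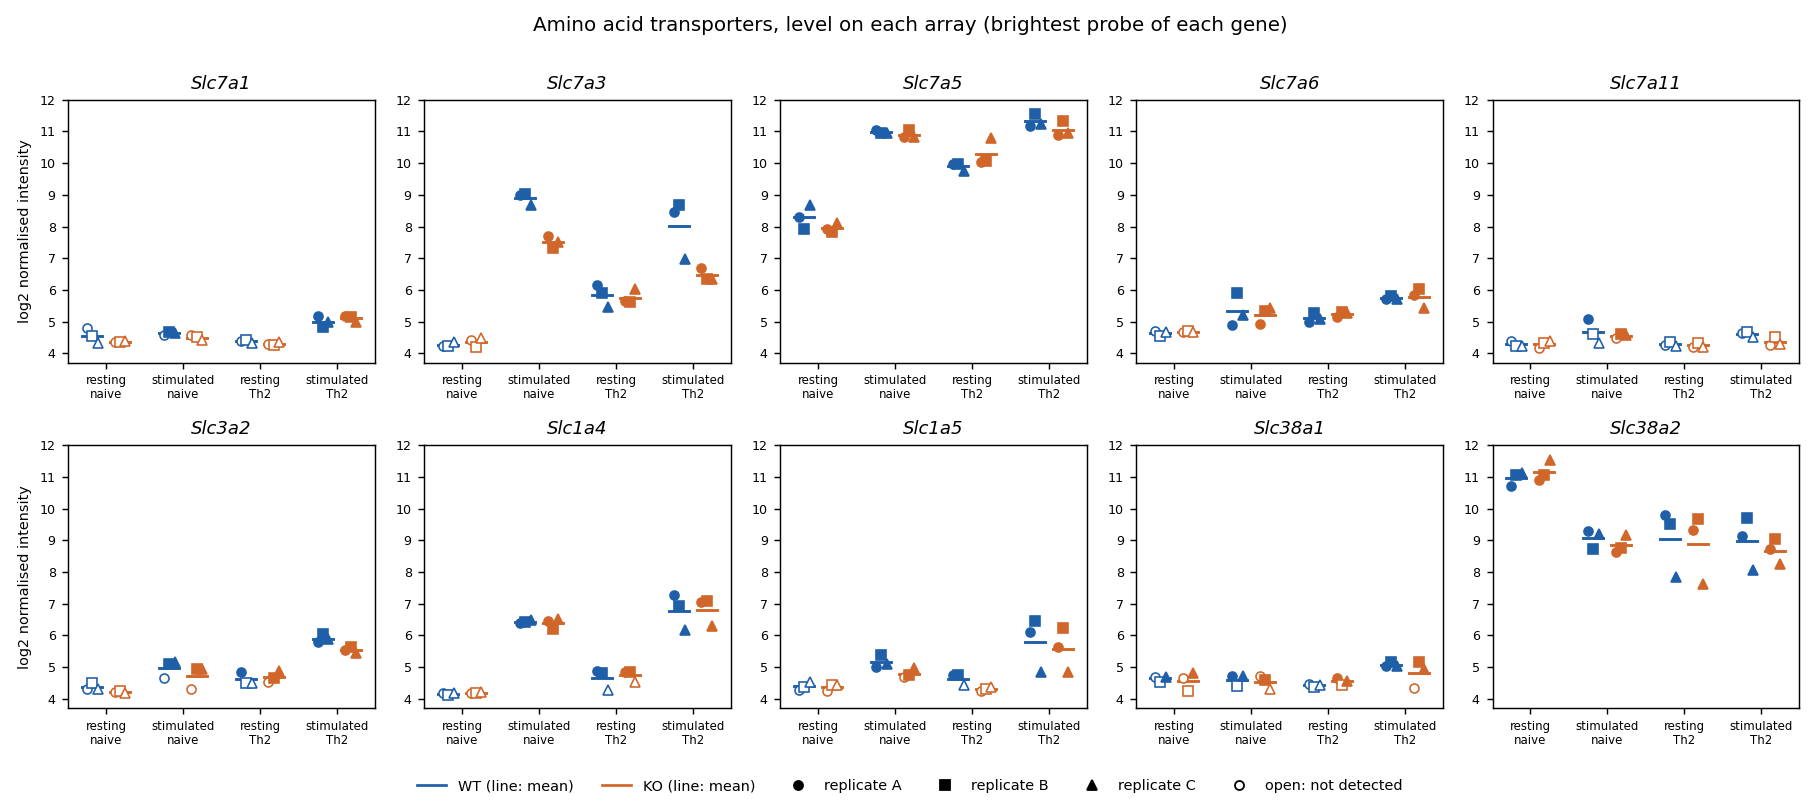
Level of each transporter on each array, one panel per gene (vertical axis, log2 normalised intensity of the brightest probe; horizontal axis, cell state; blue WT, orange KO, open symbols undetected). Slc7a3 goes from undetected in resting Naïve cells to 8.67 to 9.02 in stimulated WT Naïve cells, and Slc38a2 reads higher in resting Naïve cells than in its other states.

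Slc7a5, the leucine and tryptophan transporter of the CD98 complex, was detected on all 24 arrays. In WT cells its log2 level was 8.29, 7.92 and 8.69 in resting Naïve cells (replicates A, B and C) and 11.04, 10.96 and 10.94 in stimulated Naïve cells. Resting Th2 cells lay between them at 9.98, 9.96 and 9.74, and stimulated Th2 cells read 11.19, 11.54 and 11.25. None of these 4 groups of WT arrays overlapped another. The KO levels were 7.91, 7.83 and 8.10 in resting and 10.81, 11.05 and 10.81 in stimulated Naïve cells. In KO Th2 cells they were 10.04, 10.08 and 10.78 at rest and 10.88, 11.34 and 10.96 after stimulation. The means of the KO states had the same order as in WT cells, but the arrays of both stimulated states overlapped. The stimulated Naïve level exceeded the resting one by 2.68 (SE 0.20) in WT and 2.94 (SE 0.20) in KO cells, on the log2 scale. Between resting and stimulated Th2 cells the differences were 1.43 in WT and 0.76 in KO cells, where resting replicate C alone stood at 10.78. Without that array the KO difference was 1.00 and was called.

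Slc3a2, the heavy chain that carries Slc7a5, Slc7a6 and Slc7a11 to the membrane, was detected on 13 of 24 arrays. It was undetected on all 6 resting Naïve arrays, at log2 levels of 4.20 to 4.49. Stimulated Naïve cells read 4.65, 5.09 and 5.18 in WT and 4.30, 4.93 and 4.94 in KO, with replicate A undetected in both. In Th2 cells the level went from 4.85, 4.49 and 4.50 to 5.78, 6.05 and 5.88 in WT and from 4.52, 4.67 and 4.87 to 5.54, 5.65 and 5.45 in KO. The stimulated Th2 arrays thus lay above all others in both genotypes. The log2 difference from resting Th2 cells was 1.29 (SE 0.17) in WT and 0.86 (SE 0.17) in KO cells. The probe of Slc3a2 holds 32% G and C and reads near background in most groups, so the protein's abundance cannot be read from it.

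The other light chains gave weaker signals. Slc7a6, which exchanges cationic for neutral amino acids, was undetected in resting Naïve cells (log2 level 4.53 to 4.72) and detected on all 18 other arrays. It averaged 5.34 ± 0.52 (SD, n = 3) in stimulated WT Naïve cells, 5.12 ± 0.14 in resting and 5.74 ± 0.07 in stimulated WT Th2 cells. KO cells read 5.22, 5.24 and 5.77 in the same order. Slc7a11, the cystine and glutamate exchanger, was detected on 3 of 24 arrays, all from stimulated Naïve cells, with a highest level of 5.08 in WT replicate A. Its level in the other states could not be told from background.

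Slc7a3, a transporter of arginine and lysine, had the widest range of the 10 genes between states. It was undetected on all 6 resting Naïve arrays, with log2 levels of 4.23, 4.22 and 4.35 in WT and 4.41, 4.19 and 4.47 in KO cells. Stimulated Naïve cells read 8.99, 9.02 and 8.67 in WT and 7.72, 7.33 and 7.50 in KO cells. The stimulated level was at least 16.4-fold above the resting bound in WT and at least 6.53-fold above it in KO cells, where the bound is the lowest detected signal on each resting array, or the probe's own where higher. Resting Th2 cells fell between, at 6.16, 5.91 and 5.45 in WT and 5.65, 5.61 and 6.02 in KO cells, and these overlapped. After PMA and ionomycin the level was 8.45, 8.67 and 6.97 in WT and 6.70, 6.36 and 6.35 in KO cells. WT replicate C was the lowest of the WT arrays and still above each KO array. Slc7a1, the widely expressed arginine transporter, was detected on all 6 stimulated Th2 arrays (4.83 to 5.19) and on 2 others. Its log2 level there averaged 4.99 ± 0.17 in WT and 5.10 ± 0.11 in KO cells (SD, n = 3).

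Slc1a4, which carries alanine, serine, cysteine and threonine, followed the states closely and alike in both genotypes. It was undetected in resting Naïve cells, at log2 levels of 4.13 to 4.21. Stimulated Naïve cells read 6.40, 6.43 and 6.48 in WT and 6.45, 6.21 and 6.51 in KO cells, at least 2.99-fold above the bound in each genotype. Resting Th2 cells were at 4.86, 4.81 and 4.29 in WT and 4.85, 4.85 and 4.52 in KO cells. Stimulated Th2 cells read 7.28, 6.92 and 6.16 in WT and 7.06, 7.08 and 6.31 in KO cells. Replicate C was the lowest in Th2 cells of either genotype, and undetected at rest.

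Slc1a5, the main glutamine importer of dividing T cells, showed the same spread. It was undetected in resting Naïve cells (4.26 to 4.54) and read 5.02, 5.38 and 5.10 in stimulated WT and 4.68, 4.75 and 4.96 in stimulated KO Naïve cells. Resting Th2 cells were at 4.74, 4.74 and 4.44 in WT and undetected in KO cells (4.25, 4.30 and 4.38). In stimulated Th2 cells the levels were 6.11, 6.46 and 4.85 in WT and 5.64, 6.24 and 4.85 in KO cells, with replicate C the lowest in both. The log2 difference from resting Th2 cells was 1.17 (SE 0.31) in WT cells. In KO cells the stimulated level was at least 2.00-fold above the resting bound, and the KO call rests on a fitted log2 difference of 1.27 from undetected arrays. Without WT replicate B of stimulated Th2 cells the WT value was 0.84, and without KO replicate B the fitted KO value was 0.95, both short of a call. The WT difference was also not called when only the arrays compared were fitted (limma adjusted p = 0.0683). The second probe, which reads the same stretch, correlated with the first at r = 0.970 over the 24 arrays and gave a log2 difference of 1.21 in WT cells and at least 1.79-fold in KO cells.

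The sodium-coupled pair behaved otherwise. Slc38a1, a glutamine transporter, lay near background throughout, with 12 of 24 arrays detected and log2 levels of 4.25 to 5.18. All 3 WT arrays of stimulated Th2 cells were detected, at 5.04, 5.17 and 5.04. For Slc38a2, whose protein is known to increase when amino acids are scarce, the brightest probe read 10.71, 11.06 and 11.11 in resting WT Naïve cells and 10.89, 11.05 and 11.55 in KO. Stimulated Naïve cells were lower, at 9.30, 8.74 and 9.20 in WT and 8.65, 8.77 and 9.16 in KO cells. The log2 difference was -1.88 (SE 0.49) in WT and -2.31 (SE 0.49) in KO cells. Both resting Naïve groups are also those in which the myeloid, B cell and regulatory T cell markers averaged highest. In Th2 cells this probe ranged from 7.61 to 9.80, and replicate C was the lowest of its group in all 4 Th2 groups.

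The 3 Slc38a2 probes disagreed. The probe at base 4429 was detected on all 24 arrays, and in WT cells ranged from 6.23 to 7.44 in resting Naïve, 6.02 to 7.73 in stimulated Naïve, 7.09 to 7.49 in resting Th2 and 7.86 to 8.19 in stimulated Th2 cells. Its resting and stimulated Naïve arrays overlapped (log2 difference 0.08, SE 0.42, in WT and -0.38, SE 0.42, in KO), and its WT arrays were highest in stimulated Th2 cells. In KO cells it was called higher in stimulated than in resting Th2 cells, with a log2 difference of 1.15 (SE 0.42), where the probe at base 617 gave -0.20 (SE 0.49). The probe at base 4563, with 26% G and C, was detected on 7 of 24 arrays. Over the 24 arrays the probe at base 617 correlated with those at bases 4429 and 4563 at r = -0.16 and 0.17. The neighbouring probes at bases 4429 and 4563 correlated with each other at r = -0.48. The direction of Slc38a2 between states therefore depends on which probe is read, and why the probes differ was not tested.

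**Figure D2:**
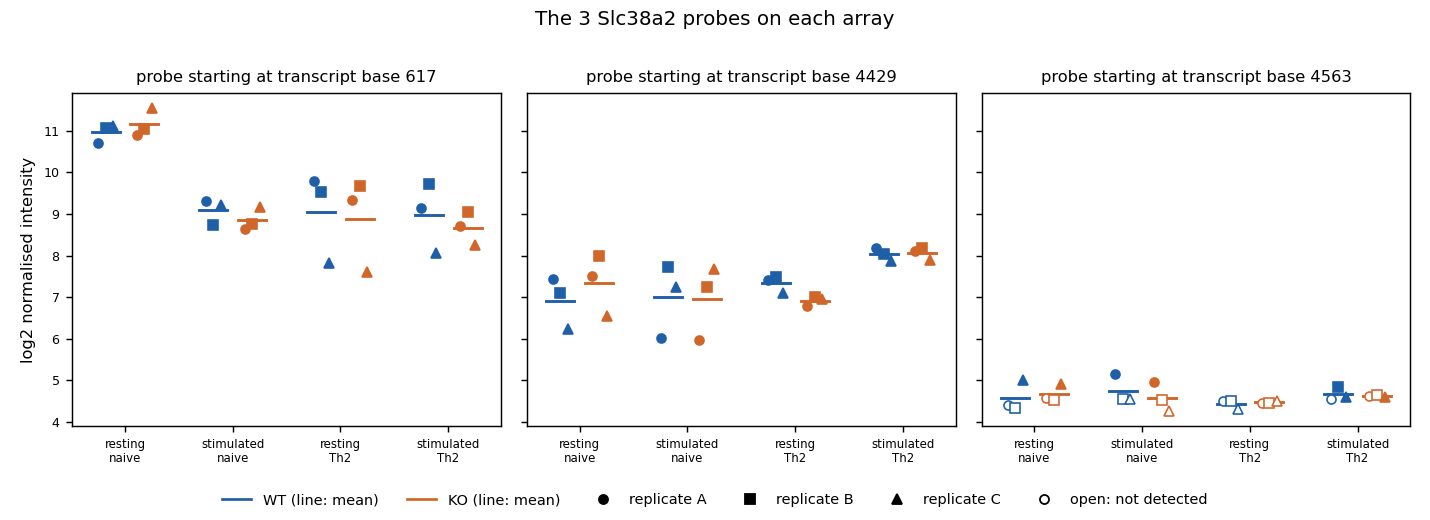
Level of each of the 3 Slc38a2 probes on each array (vertical axis, log2 normalised intensity; horizontal axis, cell state; blue WT, orange KO, open symbols undetected). The probe at base 617 is highest in resting Naïve cells. The probe at base 4429 has its highest means in stimulated Th2 cells, where KO arrays overlap those of resting Naïve KO cells.

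Between cell states, a gene is called when limma's adjusted p is below 0.05 and the log2 difference is at least 1. In WT cells 3 members (Slc7a3, Slc7a5 and Slc1a4) were called higher and 1 (Slc38a2) lower in stimulated than in resting Naïve cells, where 12.1% and 11% of all 10419 genes were called higher and lower. In resting Th2 against resting Naïve cells, 2 were higher (Slc7a3 and Slc7a5) and Slc38a2 lower, against 7.76% and 8.01% of genes. Resting Th2 against stimulated Naïve cells had 0 higher and 3 lower (Slc7a3, Slc7a5 and Slc1a4), against 5.31% and 4.83%. Stimulated against resting Th2 cells had 5 higher (Slc7a3, Slc7a5, Slc3a2, Slc1a4 and Slc1a5) and 0 lower, against 5.85% and 7.13%. With Z-score normalization Slc3a2 (0.79) and Slc1a5 (0.71) were short of the minimum difference there, as was Slc7a3 in resting Th2 against resting Naïve cells (0.96). With no background correction these values were 0.76, 0.71 and 0.97.

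In KO cells the same comparisons called 3 higher and 1 lower (11.1% and 11.2% of all genes), 2 higher and 1 lower (7.38% and 8.1%), 0 higher and 2 lower (4.94% and 4.14%), and 2 higher and 0 lower (5.14% and 6.64%). The 2 higher in stimulated KO Th2 cells were Slc1a4, by 2.07, and Slc1a5. Slc7a3 differed there by 0.71 (SE 0.29), against 2.19 (SE 0.29) in WT cells. With Z-score normalization, and with no background correction, the KO calls of Slc1a5 (0.75 and 0.77) and of Slc7a3 in resting Th2 against resting Naïve cells (0.91 and 0.84) were lost. The median difference of the 10 members between stimulated and resting cells was 0.66 in WT and 0.46 in KO Naïve cells and 0.91 in WT and 0.74 in KO Th2 cells, and that of all genes was -0.01 in each. Since the members were chosen with these comparisons in view, nothing further is read from the counts.

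**Figure D3:**
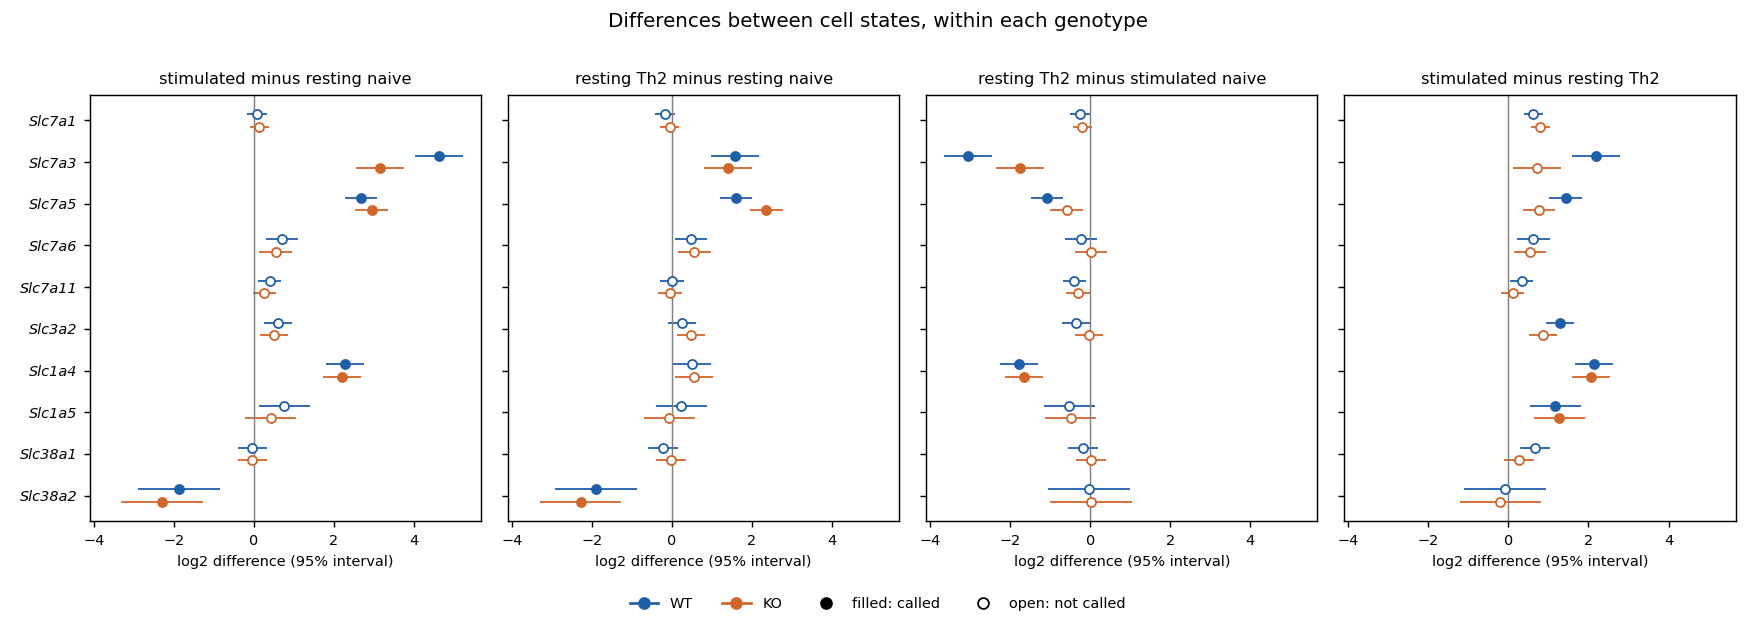
Log2 differences between cell states for each transporter with 95% intervals (horizontal axis; blue WT, orange KO; filled symbols are called), one panel per comparison. Slc7a3, Slc7a5 and Slc1a4 lie right of 0 in both genotypes after stimulation of Naïve cells, and Slc38a2 lies left of 0.

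Between genotypes, a gene is called by 4 criteria adapted from the study's methods, which set them on Z-scores, to the limma fit of log2 levels: a mean signal over 0 after background correction, an unadjusted p under 0.05, an FDR under 0.3 and an absolute Z-ratio (the log2 difference over the SD of all differences) over 1.5. In resting Naïve cells 0 of 10 members were called (0.758% of all genes), and in resting Th2 cells 0 (0.106%). In stimulated Naïve cells 1 was called (0.115%), and in stimulated Th2 cells 1 (0.096%). It was Slc7a3 both times, lower in KO cells (KO minus WT -1.38 and -1.56 on the log2 scale, SE 0.29), with no overlap between genotypes. That difference was known when the list was made and is given as a description. In resting Naïve cells, where the gene was undetected, the log2 difference was 0.09 (95% interval -0.51 to 0.70). In resting Th2 cells it was -0.08 (95% interval -0.68 to 0.52).

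How firm the Slc7a3 calls are depends on the arrays and the fit, through the FDR criterion. The stimulated Naïve difference ran from -1.49 to -1.28 when 1 array was left out, and it was no longer called without WT replicate A or B, without KO replicate A, B or C, or without WT replicate B of resting Th2 cells. The stimulated Th2 difference was no longer called without WT replicate A (-1.35), WT replicate B (-1.24) or KO replicate B (-1.51), and was largest, at -2.08, without WT replicate C. Neither call was made when only the 6 arrays of the state were fitted. The CD8 T cell marker Cd8b1 was also lower in KO than in WT stimulated Naïve cells, at 6.57 to 7.28 against 7.49 to 8.16. In stimulated Th2 cells it overlapped, at 6.44 to 8.18 against 7.37 to 8.48. Its part in the Slc7a3 difference was not tested.

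The other 9 members did not pass the genotype criteria in any state. The lowest limma adjusted p among them was 0.827, for Slc7a5 in resting Naïve cells (KO minus WT -0.35 on the log2 scale, 95% interval -0.76 to 0.06). For Slc1a4 the 4 genotype differences lay between -0.05 and 0.09, with intervals that reached from -0.52 to 0.56. For Slc38a2, the member with the widest spread between replicates, the intervals reached from -1.32 to 1.22. Arrays of the genotypes did not overlap for 2 members in each state, against 7.99% of all genes in resting Naïve, 6.59% in stimulated Naïve, 10.3% in resting Th2 and 7.47% in stimulated Th2 cells. These were Slc3a2 and Slc1a4 in resting Naïve cells, both undetected there, and Slc7a3 and Slc1a5 in stimulated Naïve cells. In resting Th2 cells they were Slc7a5 and Slc1a5, and in stimulated Th2 cells Slc7a3 and Slc3a2. Slc7a5 was higher in KO resting Th2 cells by 0.41 (SE 0.20), a value of 0.09 without the Th2 arrays of replicate C. Slc3a2 was lower in KO stimulated Th2 cells (KO minus WT -0.35, 95% interval -0.70 to -0.01).

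**Figure D4:**
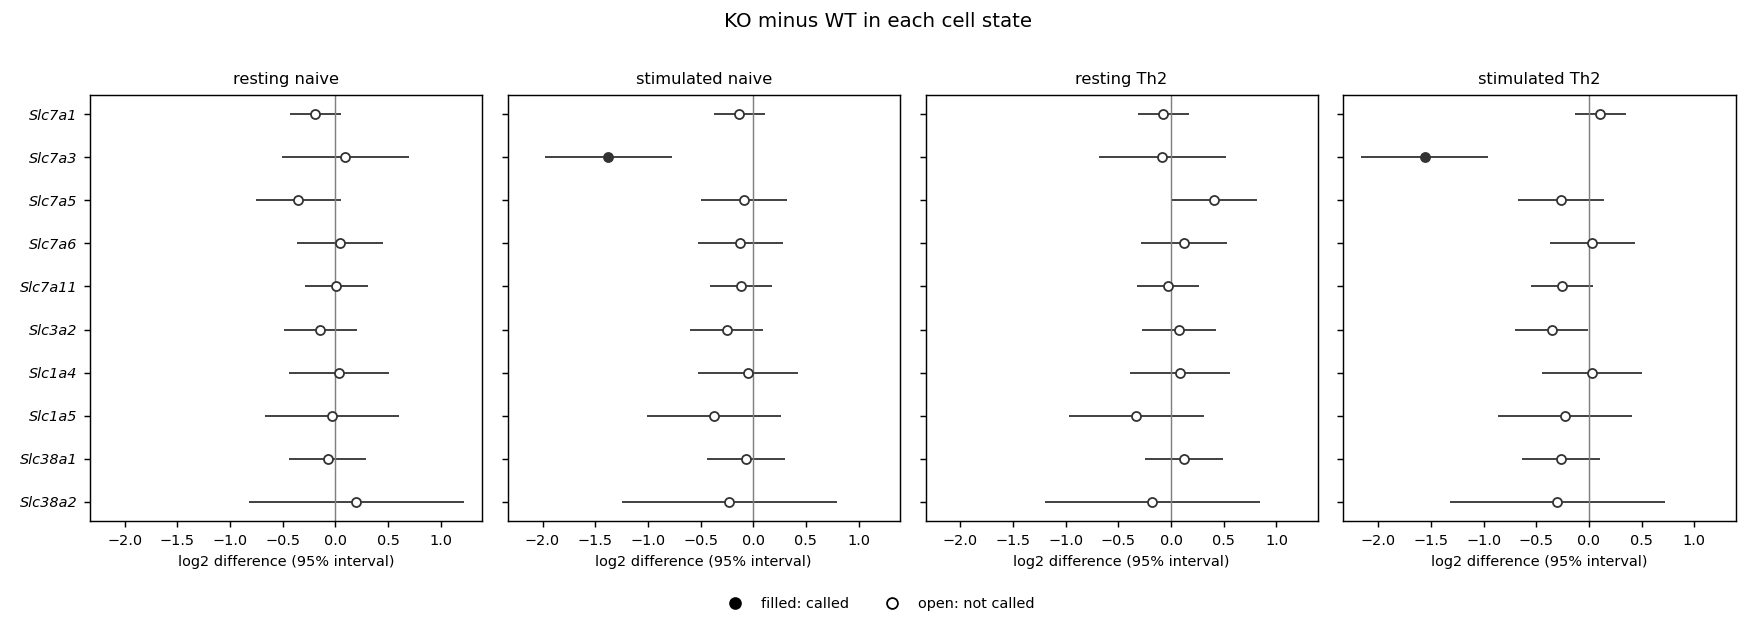
KO minus WT log2 difference of each transporter with its 95% interval (horizontal axis), one panel per cell state, with called differences filled. Only Slc7a3 in stimulated Naïve and stimulated Th2 cells is filled, and all 10 points lie left of 0 in stimulated Naïve cells.

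All 10 members were lower in KO stimulated Naïve cells, with a median difference of -0.13, while 51.5% of all genes were higher. With 1 array left out, this difference reached 0.17 for Slc7a6, 0.08 for Slc7a11, 0.05 for Slc38a1 and 0.04 for Slc1a4. For the other members it stayed below 0. Members are not replicates of a condition, so nothing further is read from this count. In stimulated Th2 cells 7 of 10 were lower (median -0.26), or 9 on a Z-score scale. In both resting states it was 5 of 10, or 6 in Naïve and 4 in Th2 cells on a Z-score scale. Apart from Slc7a3 these differences did not pass the test. The difference between the genotypes in the response to stimulation was tested as an interaction. No member was called in Naïve cells, where 0.0096% of genes were, or in Th2 cells, where 0% were, and 329 and 257 of the 14246 kept probes had an unadjusted p below 0.05. For Slc7a3 the interaction holds the stimulated difference that was in view when the list was made, and is a description. It was -1.47 (SE 0.41) in Naïve cells, against a resting level that was undetected, and -1.48 (SE 0.41) in Th2 cells, on the log2 scale. Both were short of the threshold. Without WT replicate C of stimulated Th2 cells the Th2 value was -1.99 and passed it. Without the 4 Th2 arrays of replicate C the Naïve value was -1.45 and passed it, while the Th2 value was -1.62 and did not. For Slc7a5 the Th2 interaction was -0.67 (SE 0.28), and without the Th2 arrays of replicate C it was -0.34.

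The 10 members were compared with each other over the 24 arrays as a description. The arrays share 4 states, so such values mostly follow the states. The highest correlations were those of Slc7a6 with Slc3a2 (r = 0.87), Slc7a3 with Slc7a5 (r = 0.86), Slc7a5 with Slc1a4 (r = 0.86) and Slc7a3 with Slc1a4 (r = 0.86). Among all 10419 genes, those whose levels followed Slc7a3 most closely included Mcrip2 (r = 0.95), Thop1 (0.93), Umps (0.93) and Farsb (0.92). For Slc7a5 the 5 closest were Pelo (0.98), Snrpa (0.97), Pla2g12a (0.97), Pa2g4 (0.96) and Erg28 (0.96).

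Other genes of amino acid supply were counted from lists of their pathways, and 12.1% of all genes rose and 11% fell in stimulated against resting WT Naïve cells. Of 32 other plasma membrane amino acid transporters 29 were on the array and 13 were kept. In stimulated against resting WT Naïve cells 1 of the 13 rose, the glycine transporter Slc6a9, by 2.35 (SE 0.53) on the log2 scale. It also rose in stimulated WT Th2 cells, by 1.74 (SE 0.53), though the arrays overlapped those of resting WT Th2 cells. Slc1a3, a glutamate transporter, fell with stimulation of Naïve cells, to undetected and at least 3.95-fold. It was detected only in the resting Naïve groups, where the myeloid markers averaged highest. Slc1a7 and Slc16a10 were not called (log2 differences -0.55 and 0.40). The median of the list was -0.28, against -0.01 over all genes, and none of it was called between genotypes.

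Of 9 kept transporters of lysosomes and vesicles, 0 rose and 2 fell in stimulated WT Naïve cells. These were Slc38a9, the arginine sensor of the lysosome, with a log2 difference of -1.20 (SE 0.26), and the cystine exporter Ctns, with -1.14 (SE 0.20). Ctns also fell in stimulated WT Th2 cells, with -1.14 (SE 0.20). Slc15a4 and Slc15a3 were not called in Naïve cells (-0.64 and -0.44), and the median of the list was -0.01. Of 28 kept genes of amino acid sensing to mTORC1, 3 rose and 1 fell in stimulated WT Naïve cells. The leucine sensors parted: Sesn1 had a log2 difference of -2.60 (SE 0.22) and Sesn2 one of 1.15 (SE 0.18). The GATOR2 subunits Seh1l and Sec13 rose by 2.24 and 1.00. In stimulated WT Th2 cells 1 of the 28 rose and 3 fell, where 5.85% of all genes rose and 7.13% fell. Sesn2 rose by 1.12, and the genes that fell were Castor1 (-1.95), Lamtor4 (-1.21) and Sesn1 (-1.14). The median of the list in Naïve cells was -0.04.

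Of 13 kept genes of the GCN2 and ATF4 response, 5 rose and 1 fell in stimulated WT Naïve cells, and 5 rose and 1 fell in stimulated WT Th2 cells, where 5.85% of all genes rose and 7.13% fell. In KO cells 6 rose and 1 fell in Naïve cells (11.1% and 11.2% of all genes), and 5 rose and 1 fell in Th2 cells (5.14% and 6.64%). Asns, which makes asparagine, went from a mean log2 level of 5.72 in resting to 10.40 in stimulated WT Naïve cells. Chac1, which degrades glutathione, was undetected in resting Naïve cells and at least 12.5-fold higher after stimulation. Trib3 rose by 3.38 (SE 0.67) in WT Naïve cells, and the phosphatase regulator Ppp1r15a was the one that fell there (-3.46, SE 0.31). In stimulated Th2 cells Ppp1r15a rose instead, by 1.49 in WT and 1.29 in KO. The gene that fell in Th2 cells was Ddit4 (-2.90 in WT and -2.83 in KO). Atf4 itself was not called in WT Naïve cells (0.88). In KO Naïve cells it was called higher after stimulation, by 1.15, with arrays that overlapped those at rest. In stimulated Th2 cells Atf4 rose by 1.78 in WT and 1.84 in KO. The median of the list was 0.47 in stimulated WT Naïve cells, against -0.01 over all genes.

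Of 12 kept genes of cysteine and glutathione use, 2 rose and 1 fell in stimulated WT Naïve cells. Txn1 was at least 5.46-fold higher after stimulation, and Hmox1, which is abundant in macrophages, was at least 7.81-fold lower. Cth, which makes cysteine from cystathionine, was at least 1.78-fold higher after stimulation. It was the only gene of these lists called between genotypes, with a log2 level of 4.83 in KO and 5.69 in WT stimulated Naïve cells (difference -0.87, SE 0.20, limma adjusted p = 0.291). In that state 0.115% of all genes were called. That p lies close to the limit of 0.3, and leaving out arrays was not tried for Cth. Gpx4 was not called (0.76), and the median of the list was 0.42. Of 15 kept genes of glutamine, arginine and polyamine use, 5 rose and 1 fell. Srm, spermidine synthase, rose by 3.11 (SE 0.24) and Odc1, the first enzyme of polyamine synthesis, by 1.34 (SE 0.37). Gpt2 was at least 2.00-fold higher, and Sat1, which breaks polyamines down, fell by 1.99, with a list median of 0.51. In Naïve cells the genes of all these lists that fell did so against resting cells. In those groups the myeloid, B cell and regulatory T cell markers averaged highest, and their part in this was not tested.

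**Figure D5:**
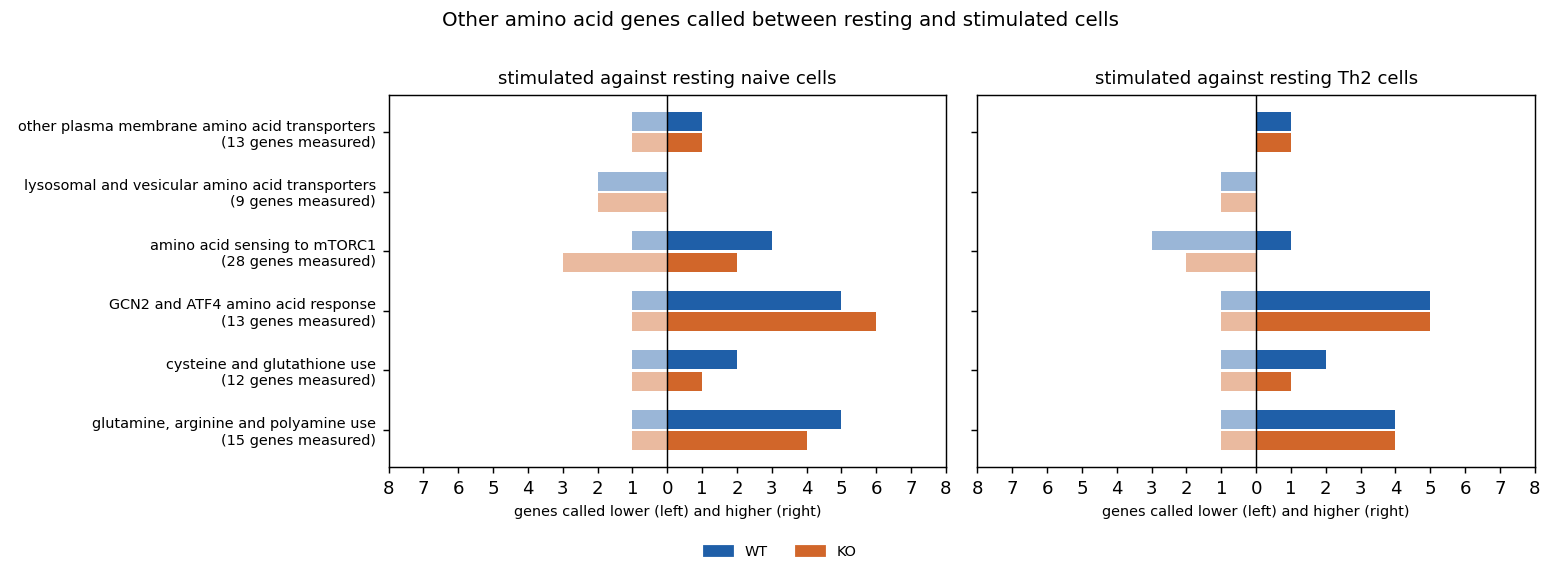
Number of genes of each list called higher (right of 0) or lower (left of 0, paler) in stimulated than in resting cells (horizontal axis, genes; blue WT, orange KO; left Naïve, right Th2). The GCN2 and ATF4 list has 5 genes called higher in WT cells in both panels, and the lysosomal list has none.

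Promoters were looked up for the 10 members in RefSeq (GRCm38.p6, 250 bases before to 50 after the start site). Entries were held for 6 of them, in 8 promoters, and the members without one were Slc7a3, Slc7a5, Slc1a5 and Slc38a1. The C/EBP-ATF response element, at which ATF4 is known to bind, was searched as TGATGCAA on both strands. It was in 2 of the 6 genes, Slc7a11 and Slc1a4, and in 0.895% of all 32851 promoters. This share and those below count promoters, of which a gene can have more than 1, and not genes. Both stretches are shown because these genes are known for their response to amino acid shortage, with the element in capitals.
Slc7a11, bases -67 to -39: cTGATGCAAacctggagaatTTGCATCAt
Slc1a4, element at -4 to 4: ctcctgcgTTGCATCAtctccagc
The promoters lie at chr3:50443564-50443863 and chr11:20332664-20332963, both on the minus strand. The antioxidant response element, searched as TGACNNNGC on both strands, was in promoters of Slc7a1, Slc7a6 and Slc38a2 and in 12.4% of all. The E-box CACGTG was in none of the 8, and in 7.15% of all. These matches are descriptions of the letters and not of binding. Slc1a4 went from undetected to 6.44 in stimulated WT Naïve cells, while Slc7a11 was detected on 1 of those 3 arrays.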

How the data were processed

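The deposited table held, per probe and array, the raw intensity and the detection p-value that the authors exported from GenomeStudio (version 1.6.0 per the submitters' processing notes, another version in the study's methods), without normalization. Intensities were corrected for background and quantile normalised with neqc of limma 3.58.1 in R 4.3.3, with an offset of 16. A probe was kept if any array had its detection p-value at or under 0.02, which left 14246 of 25697 probes and 10419 genes. A gene was read from its brightest kept probe. One model with 8 group means over all 24 arrays (16 residual degrees of freedom) was fitted with lmFit and eBayes, and p-values were adjusted by Benjamini-Hochberg over all kept probes. Between states a gene was called at an adjusted p below 0.05 and a log2 difference of at least 1, between genotypes by the 4 criteria given in the text, with the Z-ratio taken on log2 differences and p from limma, and for interactions at an adjusted p below 0.05. The scripts were tested on simulated data.

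Groups came from the sample labels. The study's methods describe 3 pairs of RNAs from Th2 cells, and a figure legend gives 3 pairs of WT and BAF180-deficient mice for the arrays. Pooled over the states, deviations of WT and KO arrays that carry the same replicate letter correlated at 0.301 (A), 0.136 (B) and 0.516 (C). Within single states the correlations ran from 0.047 to 0.648 (A), -0.003 to 0.251 (B) and 0.347 to 0.662 (C). The main fit did not use the letters, so its SEs and calls take no account of pairing. The text names all 10 members, the 5 genes most correlated with Slc7a3 (of which 1 is not reported here) and with Slc7a5, and from each pathway list the 4 genes with the largest absolute difference in stimulated against resting WT Naïve cells among those detected on all arrays of either group, and any called between genotypes. Atf4, Ddit4, Castor1 and Lamtor4 were named after their values were seen. The members and lists were chosen with earlier results of these data known. The number of arrays limits the precision, with a median SE of 0.19 on the log2 scale. Alternatives were other scalings, filters, call rules and fits, the replicate block and the leaving out of arrays.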

Additional observations from a re-analysis of the deposited data

How the results depend on the processing

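Leaving out the Th2 arrays of replicate C was chosen after seeing the data. No difference that was called turned in direction under any setting tried, while some that were not called changed sign when 1 array was left out (KO minus WT of Slc38a2 in resting Th2 cells ran from -0.79 to 0.45). The replicate block gave each letter 1 offset shared by all states and both genotypes. It did not pair WT with KO arrays within a state, and no such paired fit was made. The fit with this block changed no count of members called (1 in stimulated Naïve and 1 in stimulated Th2 cells, as without it). With Z-score normalization, and also with no background correction, 3 members in place of 5 were called in stimulated against resting WT Th2 cells, and 1 in place of 2 in KO cells. The genotype count in stimulated Naïve cells was 0 with no detection filter. It was 0 in both stimulated states when only the arrays compared were fitted, with normalization within the cell state, and at an adjusted p below 0.05. With no minimum difference, 8 members passed in stimulated against resting WT Naïve cells (4 with it) and 8 in WT Th2 cells, and in KO cells 5 in resting Th2 against resting Naïve cells and 6 in stimulated against resting Th2 cells. Without the Th2 arrays of replicate C the Naïve interaction counted 1 member, Slc7a3. With 1 array left out in turn, the genotype count ranged from 0 to 1 in both stimulated states, the Th2 interaction count from 0 to 1, and the count in stimulated against resting Th2 cells from 4 to 5 in WT and from 1 to 3 in KO cells. Probes near background (Slc7a1, Slc7a11, Slc38a1 and Slc3a2) were undetected on many arrays, which limits what differences in those genes can be seen.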
